A study of Mus musculus with 2 samples.

Results

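The distal microRNA cluster of the imprinted Dlk1-Dio3 domain lies on mouse chromosome 12, and 38 of the 1973 microRNA genes in the count tables belong to it. A gene was taken as a member if its Ensembl identifier is annotated as a microRNA gene between the proximal microRNA groups of the domain and the end of the Mirg locus. Membership used position alone and no measured value, but the members were chosen with earlier results of these data known. The measurements come from 2 microRNA sequencing libraries of midbrain from B6NCrl mice at embryonic day 12.5, with males and females mixed. Tissue from 120 embryos was pooled for replicate 1 and from 88 for replicate 2. The RNA was below 30 nucleotides, and both libraries form 1 group with no treatment or second tissue. Each embryo pool gave 1 library, so differences between single embryos were not measured.

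The genes of the domain are imprinted. Protein-coding genes such as Dlk1 and Dio3 are expressed mainly from the chromosome inherited from the father, and the noncoding RNAs and microRNAs from the chromosome inherited from the mother. Many small hairpins sit in a row on long noncoding transcripts, and each hairpin is cut by Drosha and Dicer into a 5p and a 3p arm. An arm loaded into Argonaute recognises messenger RNAs mainly through its seed, bases 2 to 8 from its 5′ end. In neurons the cluster is usually named after miR-379 and miR-410, members near its 2 ends, and its transcription is known to respond to neuronal activity through the factor Mef2. Some of its members are known for roles in synapses and in the making of neurons. For example, miR-134 limits the size of dendritic spines.

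The members run from chr12:109709060 to 109747960 on mm10, a stretch of 38.901 kb. The label Mirg covers only a minority of them. In the GENCODE M21 annotation, Mirg spans 19.697 kb and holds 14 members, 9 overlapping one of its exons and 5 in its introns. The other 24, from Mir379 to Mir544, lie upstream of it and have no annotated host gene. Another 6 microRNA genes annotated in the interval have no entry of their own in the tables. For 4 of these, Mir299a, Mir380, Mir376a and Mir409, the reads were taken from the opposite strand of an overlapping gene that is annotated on the other strand. Mir376b and Gm44322 were not analysed here.

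The distal end shows in 4 consecutive hairpins how neighbouring members can differ in level. They occupy 638 bp from the start of Mir409 to the end of Mir410. The sequences are RefSeq hairpins on GRCm38.p6, plus strand, written 5′ to 3′ with the annotated mature arms in capitals.
Mir409: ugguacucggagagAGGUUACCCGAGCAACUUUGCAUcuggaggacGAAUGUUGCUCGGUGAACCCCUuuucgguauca
Mir412: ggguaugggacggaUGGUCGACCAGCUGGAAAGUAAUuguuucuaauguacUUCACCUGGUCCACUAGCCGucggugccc
Mir369: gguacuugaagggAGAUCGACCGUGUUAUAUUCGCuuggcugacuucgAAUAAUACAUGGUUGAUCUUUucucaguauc
Mir410: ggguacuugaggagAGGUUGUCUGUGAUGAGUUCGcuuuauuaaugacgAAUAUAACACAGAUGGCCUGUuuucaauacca
Mir412, Mir369 and Mir410 overlap an exon of Mirg, and Mir409 lies in an intron.

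The mature arms that share a seed were compared next, because a shared seed is the feature by which microRNAs are grouped into families. RefSeq gave 69 arms for 37 members, both arms for 32 of them, and none for Gm27379. These arms carried 64 distinct seeds, and 5 seeds occurred in more than 1 member. They involve 9 members, shown here 5′ to 3′ with the seed in capitals.
miR-379-3p: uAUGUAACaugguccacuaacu
miR-411-3p: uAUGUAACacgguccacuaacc
miR-379-5p: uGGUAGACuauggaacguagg
miR-1193-5p: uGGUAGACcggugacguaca
miR-494-5p: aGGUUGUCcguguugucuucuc
miR-410-5p: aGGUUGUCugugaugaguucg
miR-496a-5p: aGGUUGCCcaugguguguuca
miR-453: aGGUUGCCucauagugagcuugca
miR-758-5p: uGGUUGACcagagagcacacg
miR-1197-5p: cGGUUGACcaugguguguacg
Both arms of Mir379 belong to a pair, its 3p arm with Mir411 and its 5p arm with Mir1193. With positions counted from the 5′ end, miR-379-3p and miR-411-3p differed at 2 of 22 bases, U10C and U22C, both outside the seed. On the other arm, miR-379-5p and miR-411-5p (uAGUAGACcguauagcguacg) differed at 7 of 21 bases. One of the 7, G2A, lies in the seed, which puts their 5p arms in different groups. The arms miR-379-5p and miR-1193-5p had the same seed and differed at 10 of 20 compared bases. All these differences were counted position by position without gaps, so a shift by 1 base counts as several differences. The run from A15C to G20A in this last pair may be such a shift, and the counts of the pairs are not ranked.

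The deposited values are raw read counts per gene, given here as CPM, counts per 1000000 own-strand counts of the library, and not divided by length. Replicate 1 held 4629302 own-strand counts and replicate 2 held 2805487. A hairpin's count sums its 2 arms, so the files do not tell which arm was present. Reads that aligned to several places were 33.4% of each library and were assigned to no gene. Of 11 brain microRNA genes listed, 9 were found in the table and all 9 were detected in both libraries. They summed to 11963 and 12307 CPM in replicates 1 and 2. Most of this came from Mir137 (4225 and 3564 CPM), Mir153 (3512 and 3286), Mir219a-2 (2356 and 3729) and Mir219a-1 (1295 and 1090). Reads shared by copies of a microRNA, such as those of Mir9 or Mir128, can be among the unassigned ones. The brain sum may thus be too low and cannot be ranked against the other lists. Markers of other tissues were also present. The endothelial Mir126a stood at 23434 and 26242 CPM, the 5 mesenchymal genes together at 11270 and 17444 CPM, and 2 leukocyte genes at 302 and 451 CPM. The 2 erythroid genes summed to 399 and 242 CPM. Of 5 genes in the Hox clusters, which are expressed in hindbrain and trunk, 4 were detected, at 214 and 400 CPM in all, and Mir196a-1 was at 0. In bulk tissue, fewer cells of a type and less RNA per cell cannot be told apart.

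The cluster took 63480 CPM in replicate 1 and 56311 CPM in replicate 2. Its mean was 5.99% ± 0.51 (SD, n = 2) of the own-strand total. With the reads of the 4 opposite-strand loci also added to the total, its share was 6.26% (95% Wilson interval 6.24 to 6.28) in replicate 1. The share in replicate 2 was 5.56% (5.54 to 5.59), and these intervals cover counting error only. The 4 loci read on the opposite strand, Mir409, Mir376a, Mir380 and Mir299a, made up 22.1% ± 0.37 (SD, n = 2) of the cluster. They held 57.7% and 48.5% of all opposite-strand reads in the 2 libraries. Each of the other 34 members had 0 reads on its opposite strand in both libraries.

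Of the 38 members, 35 had at least 10 counts in both libraries. Levels were very uneven: 15 members stood at a mean of 1000 CPM or more, 13 between 100 and 1000, and 10 below 100. All 15 of the first class were among the 100 most abundant genes of the table. The quantified members spanned a 2580-fold range. At the bottom, Gm27379 had 2 reads in replicate 1 and 0 in replicate 2, and Mir654 and Mir453 had 0 in both. A count of 0 allows up to 3 counts, or 0.648 CPM in replicate 1 and 1.07 CPM in replicate 2.

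**Figure D1:**
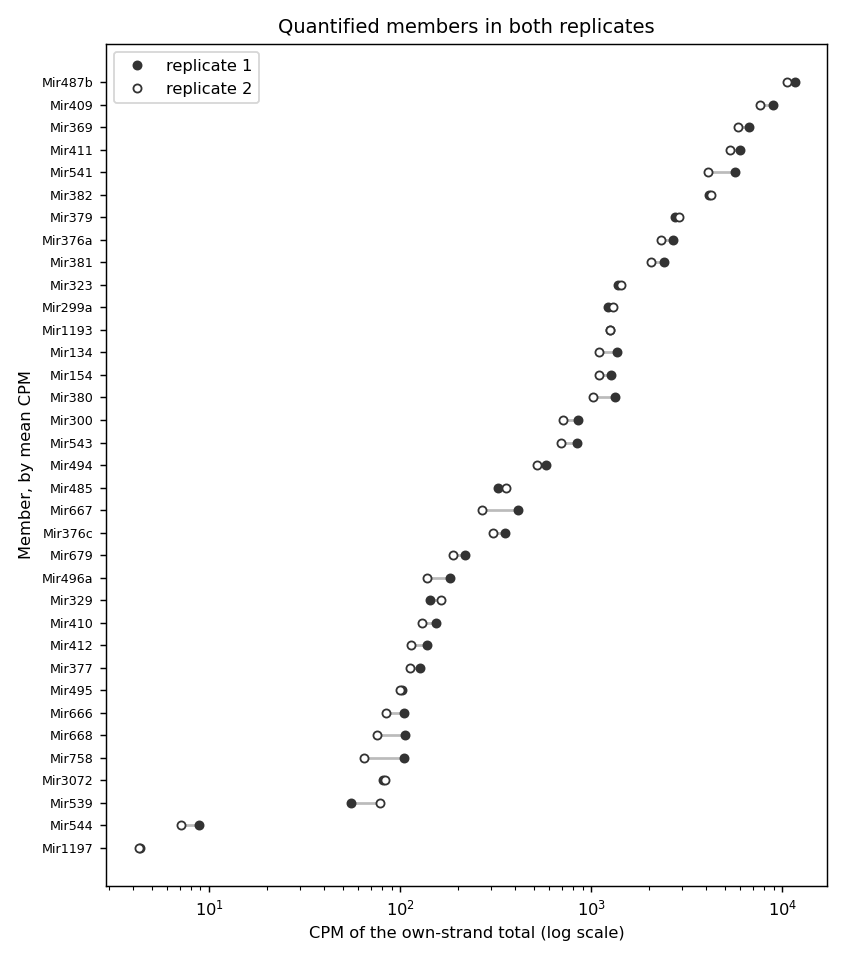
CPM (log axis) of each quantified member in replicate 1 and replicate 2, ordered by mean level, with a line joining the 2 points. Levels run from 11089 CPM for Mir487b to 4.30 CPM for Mir1197, and the 2 libraries lie close together beside that range.

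Mir487b was the most abundant member, at 11598 CPM in replicate 1 and 10581 in replicate 2, and ranked 21st of all genes by assigned counts. Reads that aligned to several places are missing from such ranks and from the cluster's share, which can favour genes with a single copy. Mir487b alone held 18.5% ± 0.37 (SD, n = 2) of the cluster's counts. Mir409 followed with 8971 and 7634 CPM. Mir369, whose 3p arm is known to target N-cadherin in developing cortex, had 6670 and 5833 CPM. These 3 members together made up 42.8% ± 0.14 of the cluster. Mir411 had 5985 and 5296 CPM, which overlaps the range of Mir369 but lies below it within each library. Mir541 had 5643 and 4091 CPM, the widest spread among the leading members. Mir382 had 4119 and 4237 CPM. Mir541 was above Mir382 in replicate 1 and below it in replicate 2, so the order of that pair is not settled. The 6 members named so far held 67.3% ± 0.58 (SD, n = 2) of the cluster.

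Mir379, the first hairpin of the row, stood at 2728 and 2885 CPM. Mir376a had 2665 and 2323 CPM, below both values of Mir379. Hairpins of the miR-376 group are known substrates of A-to-I RNA editing, which gene counts do not show. Mir381 had 2391 and 2049 CPM and overlapped Mir376a, but lay below it within each library. Mir323 had 1380 and 1423 CPM, apart from the members above and below it. The ranges of the next 5 overlapped, and the order of their pairs changed between the libraries, except that Mir134 was above Mir380 in both. They were Mir299a at 1262 ± 55.8, Mir1193 at 1254 ± 6.89, Mir134 at 1231 ± 194, Mir154 at 1180 ± 119 and Mir380 at 1174 ± 212 CPM (mean ± SD, n = 2). The 12 most abundant members, down to Mir1193, held 86.5% ± 0.55 of the cluster.

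The arms that RefSeq holds for the 3 top hairpins are given to show their seeds; miR-487b-3p is not among them. They are written 5′ to 3′ with the seed in capitals.
miR-487b-5p: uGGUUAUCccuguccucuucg
miR-409-5p: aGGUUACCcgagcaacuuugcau
miR-409-3p: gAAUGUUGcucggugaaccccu
miR-369-5p: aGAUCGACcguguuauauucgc
miR-369-3p: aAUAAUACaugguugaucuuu
These 5 seeds differ, and none of them is shared by another member.

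The counts were spread over both stretches of the row. The 24 members upstream of Mirg summed to 32824 ± 2132 CPM (SD, n = 2), 54.8% ± 1.08 of the cluster. The 14 members within Mirg summed to 27071 ± 2937 CPM.

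**Figure D2:**
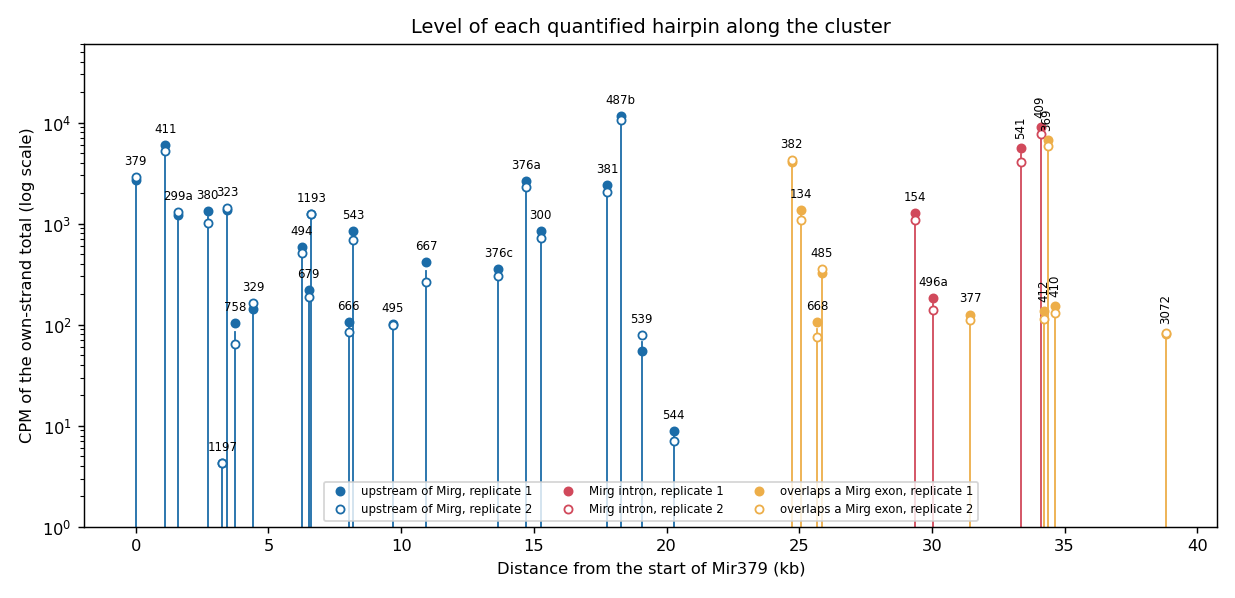
CPM (log axis) of the 35 quantified members in replicate 1 (filled) and replicate 2 (open) against distance in kb from the start of Mir379, coloured by place: upstream of Mirg, in a Mirg intron or overlapping a Mirg exon. Abundant and scarce hairpins are interspersed along the 38.901 kb, and some neighbours have similar levels.

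Neighbouring hairpins often differed widely in level. Over the 34 pairs of consecutive quantified members the median fold between the neighbours' levels was 5.57, and 11 pairs differed by at least 10-fold. Short distances were no exception, since 6 of the 14 pairs less than 500 bp apart also differed by at least 10-fold. At the distal end, Mir409 and Mir412 are separated by 51 bp. Mir412 stood at 138 and 113 CPM, and Mir409 was 65.2-fold higher in replicate 1 and 67.3-fold higher in replicate 2. The next hairpin, Mir369, begins after a gap of 49 bp and was 49.8-fold above Mir412. Mir410, 218 bp further on, had 154 and 130 CPM, 43.2-fold and 44.8-fold below Mir369 in the 2 libraries. High and low hairpins thus alternated within the 638 bp whose sequences are printed above, with nearly the same ratios in both libraries.

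**Figure D3:**
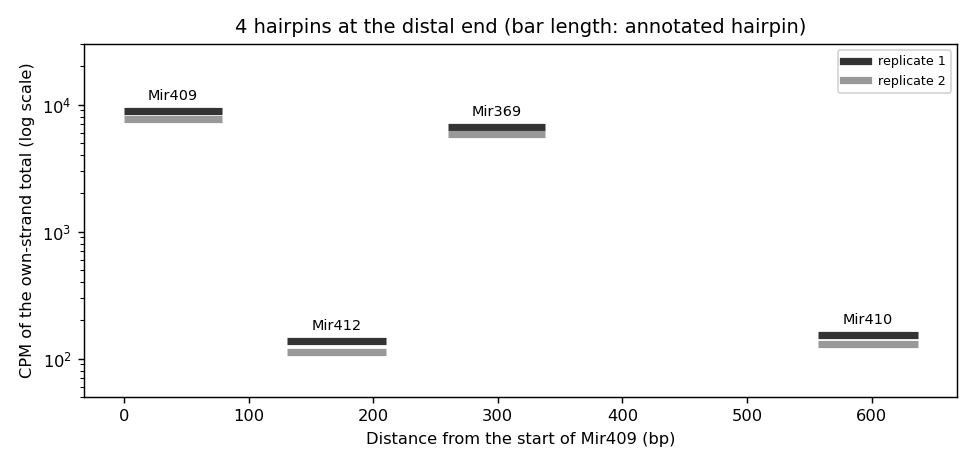
CPM (log axis) of Mir409, Mir412, Mir369 and Mir410 in replicate 1 (dark) and replicate 2 (grey), against distance in bp from the start of Mir409, with each bar as long as the annotated hairpin. The lower value of Mir369, 5833 CPM, is far above the higher value of Mir410, 154 CPM.

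A second steep change lies near the proximal end. Mir1197 had only 20 and 12 counts, or 4.32 and 4.28 CPM. Its neighbour Mir323 begins 71 bp after it and was 319-fold higher in replicate 1 and 333-fold higher in replicate 2. On its other side Mir380 was 273-fold higher. Mir544, at 41 and 20 counts, stood 523-fold below Mir382, which is 4368 bp away.

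Among the seed groups, the pair of miR-379-3p and miR-411-3p came from the most abundant hairpins. Mir379 and Mir411 summed to 8713 CPM in replicate 1 and 8181 in replicate 2. Mir379 with Mir1193 summed to 3987 and 4134 CPM, and Mir494 with Mir410 to 737 and 648 CPM. In the other groups 1 hairpin gave nearly all counts. Mir496a had 183 and 139 CPM while its partner Mir453 was at 0. Mir758 had 105 and 64.5 CPM against 4.32 and 4.28 CPM for Mir1197. These are sums over whole hairpins and include the arms that do not share the seed.

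**Figure D4:**
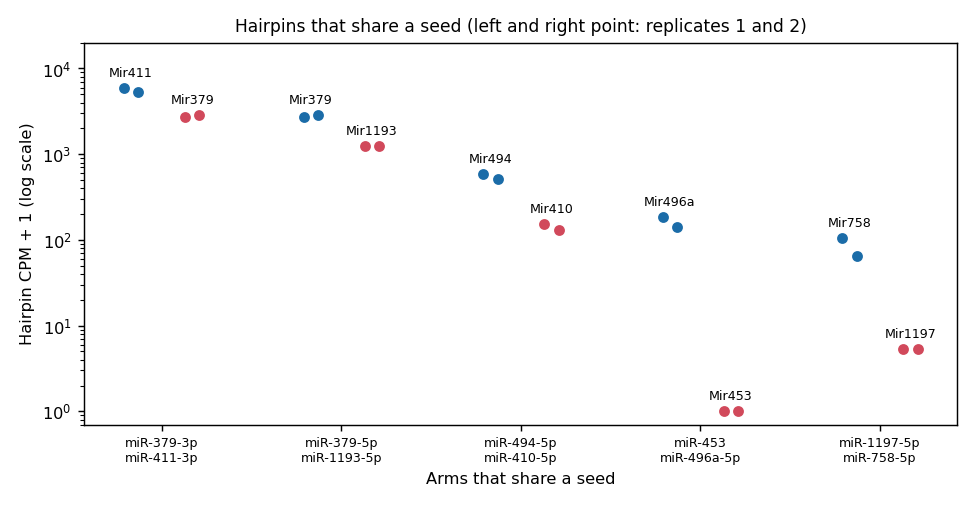
CPM + 1 (log axis) of the hairpins in each of the 5 groups that share a seed, with replicate 1 at the left and replicate 2 at the right point of each hairpin. The members of each group differ in level in both libraries, and Mir453 is at 0.

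Hairpins of different seed can still be close in sequence. RefSeq holds a hairpin for 35 members, and over their 595 pairs the median identity in a global alignment was 51.5% of the shorter hairpin. The closest pair was Mir543 and Mir495 at 81.0%, followed by Mir494 and Mir154 at 78.8%. Their hairpins show where they match, with the arms in capitals.
Mir543: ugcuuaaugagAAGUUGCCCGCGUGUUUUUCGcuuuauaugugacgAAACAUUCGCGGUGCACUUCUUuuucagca
Mir495: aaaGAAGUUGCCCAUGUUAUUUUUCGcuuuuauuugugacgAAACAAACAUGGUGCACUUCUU
Close pairs differed in level to varying degrees. Mir494 and Mir154 were 2.15-fold apart. Mir543 was 7.56-fold above Mir495, and Mir376a was 7.59-fold above Mir376c at 76.5% identity. Mir487b was 20.2-fold above its closest hairpin, Mir494. Mir411 and Mir379, at 77.3% identity, were 2.01-fold apart, but this pair does share the seed of its 3p arms.

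Mir381 and Mir300 show how few bases can separate members. Their 3p arms, 5′ to 3′ with the seed in capitals, are these.
miR-381-3p: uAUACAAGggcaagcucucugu
miR-300-3p: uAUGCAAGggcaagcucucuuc
They differed at 3 of 22 bases, A4G, G21U and U22C, of which A4G lies in the seed. Mir381 was 2.84-fold above Mir300, which had 851 and 714 CPM.

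Short stretches recurred among the hairpins. UUCGCUU, which lies at the end of the 5p arm and the start of the loop in Mir543, was found in 10 of 35 members (28.6%). In the other 970 mouse hairpins of the RefSeq table, of any length, it was found in 2 (0.206%). UACUUG was found in 10 of 35 members and in 1.65% of the other hairpins, and GGUCCAC in 5 members and 3 other hairpins. The other stretches searched were GGUACUU, in 6 members and 4 other hairpins, and AGUAUC, in 6 and 15. The last, GGUUG, was common elsewhere too, in 12 members and 95 other hairpins (9.79%). These were searched on the hairpin's own strand, since an RNA hairpin has 1 strand, and were chosen after the sequences had been read. A match describes the letters only. A stretch of 20 bases was shared with another hairpin by 4 members. Mir411 and Mir758 share one with each other, and Mir376c and Mir487b each share one with Mir376b. Reads within such a stretch can align to both places and are then in no gene's count. In Mir411 and Mir758 the stretch begins inside the 3p arm and ends beyond it, so it holds no whole annotated arm. For Mir376c and Mir487b this was not examined. The effect of the stretches on the levels of these 4 is not known.

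Between the 2 libraries the cluster's summed counts were 1.13-fold lower in replicate 2, a log2 ratio of -0.17 ± 0.0045 (counting SE). Each member's count was set against counting noise by Fisher's exact test (two-sided), with Benjamini-Hochberg adjustment over all 384 genes with at least 10 counts in both libraries. This compares the libraries and no conditions, and it covers counting error only. Over all these genes 54.7% were called different at an adjusted p under 0.05, 27.1% higher and 27.6% lower in replicate 2. Of the 35 quantified members, 22 were lower, 5 were higher and 8 were not called. The members' median log2 ratio was -0.20, against 0.03 for all genes tested, and 27 of 35 members were below 0. With DESeq2 size factors 22 members were lower and 2 higher, against 29.9% lower and 24.0% higher over all genes tested.

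**Figure D5:**
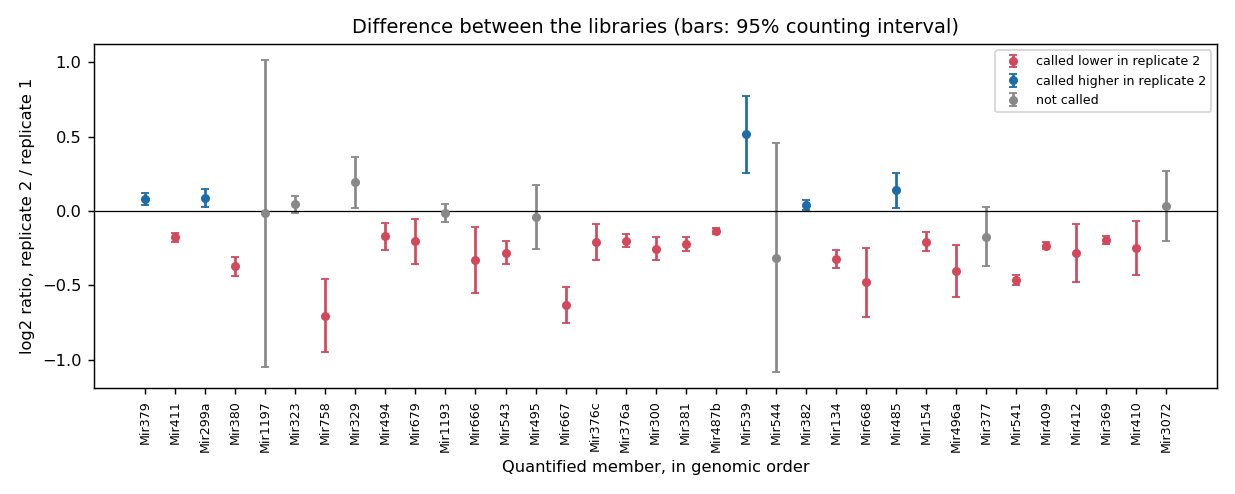
Log2 ratio of replicate 2 over replicate 1 for the 35 quantified members in order of position, with 95% counting intervals. Most members lie a little below 0, Mir539 is highest at 0.52 and Mir758 lowest at -0.70.

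The differences were small for nearly all members. Only Mir758 and Mir667 differed by more than 1.5-fold. Mir758 had 105 CPM in replicate 1 and 64.5 in replicate 2, a log2 ratio of -0.70 ± 0.13 (counting SE; adjusted p = 2.91e-08, Fisher's exact test). Mir667 had 413 and 267 CPM, a ratio of -0.63 ± 0.06 (adjusted p = 9.89e-25, Fisher's exact test). Mir668 had 106 and 75.9 CPM, a ratio of -0.48 ± 0.12. Among the abundant members, Mir541 was furthest from 0, at -0.46 ± 0.02. In the other direction, Mir539 had 55.1 and 78.8 CPM, a ratio of 0.52 ± 0.13 (adjusted p = 0.000298, Fisher's exact test). The other members that were higher in replicate 2 moved little: Mir485 by 0.14, Mir299a by 0.09, Mir379 by 0.08 and Mir382 by 0.04 on the log2 scale. The calls of Mir299a, Mir382 and Mir485 were lost with DESeq2 size factors.

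Neighbours were also set side by side by their ratios. The median absolute difference of the log2 ratio was 0.09 over the 14 pairs less than 500 bp apart and 0.26 over all 34 pairs, and the 2 sets were not tested against each other. Some close pairs differed more, among them Mir323 and Mir758, 216 bp apart, by 0.75 and Mir668 and Mir485, 104 bp apart, by 0.62. The summed log2 ratio was -0.13 for the 24 members upstream of Mirg, -0.12 for the 9 that overlap a Mirg exon and -0.31 for the 5 in its introns. Mir541, at -0.46, and Mir409, at -0.23, held most of the intron counts. Single members ranged from -0.70 to 0.52 upstream of Mirg and from -0.48 to 0.14 within it. The mesenchymal, leukocyte and Hox marker sums and Mir126a stood higher in replicate 2, the erythroid sum lower and the brain sum nearly level, with the values given above. Within the brain sum, Mir219a-2 stood higher in replicate 2, and Mir137, Mir153 and Mir219a-1 lower. The part of these markers in the members' ratios was not tested.

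The proximal microRNA genes of the domain, from the start of Meg3 to the cluster, were compared as the nearest group of the same imprinted locus. Their 20 genes summed to 20076 CPM in replicate 1 and 17412 in replicate 2, and the distal cluster was 3.16-fold and 3.23-fold higher. Of 14 quantified proximal genes, 10 were lower in replicate 2, 2 higher and 2 not called. Over all genes tested, 27.6% were lower and 27.1% higher. The distal and proximal sums moved in the same direction, with log2 ratios of -0.17 and -0.21. Single proximal genes ranged from -0.34 to 0.40, wider than the gap between the sums.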

How the data were processed

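The deposited files hold raw counts of reads per microRNA gene for 2 midbrain libraries. They were derived from alignments to mm10 with annotation M4, per the deposited read-me files. No aligner is named: it is not given in the sources used here. Of the 3 count columns, the first holds reads on either strand, the second those on the gene's own strand and the third those on the opposite strand. Rows naming no gene took 56.9% and 58.2% of reads and stayed out of totals and tests. Own-strand counts were used, with opposite-strand counts for 4 loci. Log2 ratios were taken from CPM, and p-values of Fisher's exact tests (scipy 1.17.1) were adjusted over 384 genes. The tests were checked on data simulated with planted changes and counting noise only. That check does not cover other spread between libraries. With 1 group edgeR has no contrast, so edgeR 4.0.16 and DESeq2 1.42.0 gave scaling factors only. Positions came from GENCODE M21 and sequences from RefSeq (GRCm38.p6), aligned with Biopython 1.88. The members and lists were chosen with earlier results of these data known. The rule for named genes gives full values for the 12 most abundant members, the 4 opposite-strand loci, members sharing a seed, and the 3 called members with the largest ratio in each direction among those with at least 100 counts in either library. Mir412, Mir544, Mir134, Mir154, Mir300, Mir543, Mir495 and Mir376c were named after their values were seen. The labels call the libraries biological replicates from separate pools.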

Additional observations from a re-analysis of the deposited data

Results flagged for a closer look

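The locus counted for Mir299a through the opposite strand of Mir299b also held reads on the own strand of Mir299b, a column that the comparisons above do not use. There were 9 such reads in replicate 1 and 4 in replicate 2, with no control sample to set them against. The opposite strand held 5659 and 3651 reads. The other 3 loci read in this way, Mir380, Mir376a and Mir409, had 0 own-strand reads in both libraries.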

How the results depend on the processing

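The cluster's level was 5.63% and 6.35% with 1 library left out in turn, 5.84% with reads of either strand and 5.91% with the 4 loci's reads added to the total. It fell to 4.67% with own-strand counts for every member, because 4 loci then drop out. The number of members higher in replicate 2 was 5, and was 2 with DESeq2 size factors, 3 with TMM factors and 3 with no filter on low counts. Over all genes tested the share higher was then 24.0%, 26.6% and 13.1%, and the share lower 29.9%, 27.9% and 14.0%. The number lower was 22 under each of these. With own-strand counts alone it was 19 of 31 tested, against 27.1% of all genes tested. The same 22 were lower under the 3 scalings. The cluster's log2 ratio was -0.21 with DESeq2 size factors, -0.18 with TMM factors and -0.18 without Mir487b. Of 22 named members, 19 kept their side of the threshold with DESeq2 size factors and 20 with TMM factors. Adjusted p-values were 0.109 for Mir299a, 0.793 for Mir382 and 0.126 for Mir485 with DESeq2 size factors, and 0.0998 for Mir382 and 0.0522 for Mir485 with TMM factors (Fisher's exact test). Sums of the seed groups ranged over the single libraries from 8181 to 8713 CPM for Mir411 and Mir379, 3987 to 4134 for Mir379 and Mir1193, 648 to 737 for Mir494 and Mir410, 139 to 183 for Mir496a and Mir453, and 68.8 to 109.3 for Mir758 and Mir1197. No paired analysis was possible because there is 1 group. With 2 libraries the SD is itself uncertain, and levels near 3 counts cannot be told from 0.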

Other observations

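Some arms of the cluster share their seed with microRNAs outside it. Of the 69 arms, 12 had a seed that also occurs in an arm of a microRNA that is no member, and for 10 of these the partner is other than miR-299b-3p or miR-376b-5p of the same interval. The seed of miR-412-3p is also that of miR-1983. Mir1983 stood at 4207 and 4863 CPM in replicates 1 and 2, against 138 and 113 CPM for Mir412. Mir362, whose miR-362-3p has the seed of miR-329-3p, had 145 and 96.6 CPM, against 143 and 163 CPM for Mir329. Mir672, whose miR-672-5p has the seed of miR-377-5p, had 146 and 182 CPM, against 126 and 112 CPM for Mir377. Mir370, a proximal hairpin of the same domain whose miR-370-5p has the seed of miR-1193-3p, had 852 and 700 CPM against 1259 and 1249 CPM for Mir1193. Mir344e, whose miR-344e-3p has the seed of miR-410-3p, had only 7 and 7 counts (1.51 and 2.50 CPM), against 154 and 130 CPM for Mir410. The same seed is in miR-344d-3p. Its genes Mir344d-1 and Mir344d-2 were at 0 in both libraries, and Mir344d-3 had 1 and 0 counts. Reads shared by these copies would be in no gene's count, so their level is not known. Mir3620, Mir7221, Mir1192 and Mir467h, with the seeds of miR-134-3p, miR-679-5p, miR-495-3p and miR-668-5p, were at 0 in both libraries. Their partners in the cluster, Mir134, Mir679, Mir495 and Mir668, stood at means of 1231, 204, 101 and 90.9 CPM. These are hairpin counts, so which arm was present is not known, and the pairs were picked after their values were seen.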
